A study of Mus musculus with 24 samples.

Results

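Transfer RNA fragments (tRFs) that begin at the 5′ end of the lysine tRNAs and are under 30 nt long were followed in mouse liver. The rows were picked by name, but the choice of these fragments and of the tests was made with earlier results of these data known. Each tRF in the deposited count table carries a code of its sequence, and the rows taken had a code that begins with PS5P4P, the start of tRNA-LysTTT, or with PSQP4P, the start of tRNA-LysCTT. This gave 28 of the 8456 tRFs, 11 with the LysTTT start and 17 with the LysCTT start. Together they held 20421 counts, or 2.45% of all tRF counts in the 24 libraries. LysTTT and LysCTT are used below for the starts. The anticodon lies beyond these fragments, and no tRNA gene sequence was used here to check the assignment.

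The livers came from C57Bl/6J mice in 3 groups of 8 samples each. RCD mice stayed on regular chow and were lean. AM132 and AM608 mice became obese on a high fat diet given for 11 weeks, and were then injected intravenously with 3.3 mg/kg of a locked nucleic acid oligonucleotide on 3 days running. AM132 is a 16-mer complementary to miR-132, and AM608 is a 15-mer complementary to miR-608, a miRNA of primates, used as the control molecule. Livers were taken 7 days after treatment. AM132 against AM608 compares the oligonucleotides within obese mice. In AM608 against RCD and AM132 against RCD the diet and the injection change together and cannot be told apart, and no obese mice without an oligonucleotide are analysed here. The labels number the samples without tying them to animals, so the p-values below speak of the spread among these samples only.

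Lysine is carried to the ribosome by 2 isoacceptor tRNAs that differ in their anticodon. Mature tRNAs can be cut by nucleases in the D loop, the anticodon loop or the T loop. Cuts in the D loop leave short fragments with the tRNA's 5′ end, and cuts near the anticodon leave longer 5′ fragments. Some short fragments have been described in complex with Argonaute proteins, as miRNAs are.

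The sequences below show how alike the LysTTT and LysCTT fragments are and where they part. They are written 5′ to 3′ as decoded from the deposited names, with positions counted from 1 at the 5′ end, and capitals mark positions 7, 28 and 29, where the 29-nt forms differ.
LysTTT, 18 nt: gcccggAtagctcagtcg
LysTTT, 19 nt: gcccggAtagctcagtcgg
LysTTT, 21 nt: gcccggAtagctcagtcggta
LysTTT, 29 nt: gcccggAtagctcagtcggtagagcatCA
LysCTT, 16 nt: gcccggCtagctcagt
LysCTT, 26 nt: gcccggCtagctcagtcggtagagca
LysCTT, 29 nt ending in G: gcccggCtagctcagtcggtagagcatGG
LysCTT, 29 nt ending in A: gcccggCtagctcagtcggtagagcatGA
With the LysTTT 29-nt sequence as the reference, the LysCTT form ending in G has A7C, C28G and A29G, and the form ending in A has A7C and C28G. Up to 27 nt, fragments of equal length from the LysTTT and LysCTT starts therefore differ at position 7 only, apart from 2 rare LysCTT fragments of 19 and 26 nt that carry G19A and held 5 counts and 1 count. How reads were assigned between such near-identical sequences is not given in the sources used here. Apart from LysTTT and LysCTT themselves, 3 starts in the table lie 1 base away from LysTTT, with 1 to 2 counts each, and none lies 1 base away from LysCTT. Bases 2 to 8, the stretch called the seed in a miRNA, are shown in capitals in gCCCGGATagctcag for LysTTT and in gCCCGGCTagctcag for LysCTT. None of 1679 mature mouse miRNAs in RefSeq has the same bases 2 to 8 as either start. RefSeq (GRCm38.p6) lists 2 tRNA genes named n-TKttt and 24 named n-TKctt.

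The libraries held 5689143 to 8734721 miRNA counts and 20580 to 80578 tRF counts. AM132 library 8 had the 80578, against at most 46567 in the other 23 libraries. Only 48.4% of its tRF counts lay in the 295 tRFs that passed the filter on low counts, against 86.9 to 90.4% in the others. In the sums by the first 15 nt used below, 65.8% of its tRF counts lay in tested sums, against 72.4 to 91.4% in the others. CPM values are counts scaled to a common total of the tested tRFs or sums. Its CPM values are therefore high relative to its shares of all tRF counts, and results that it moves are given without it as well. The liver miRNA miR-122-5p had median CPM values of 292454, 207044 and 240554 among miRNAs in AM132, AM608 and RCD. miR-132-3p was at 0 CPM in all AM132 libraries and at 23.3 ± 7.01 CPM (SD, n = 8) in AM608 and 20.7 ± 12.7 CPM in RCD. RCD library 3 stood apart in marker miRNAs. Its 7 neuronal miRNAs summed to 1449 CPM, against a group median of 474. Its 3 muscle miRNAs summed to 331 CPM against 36.0, and the 3 leukocyte miRNAs found of 5 listed to 1006 CPM against 172. Its 2 erythroid miRNAs summed to 1682 CPM against 679, the highest of all libraries. Its 3 hepatocyte miRNAs (256441 CPM) and 3 biliary miRNAs (380 CPM, group median 1283) had the lowest sums of all libraries. Between groups, the median hepatocyte sum was 524281 CPM in AM132, 377954 CPM in AM608 and 438204 CPM in RCD, and that of 2 stellate cell miRNAs 2503, 3932 and 3360 CPM. The part of these cell types in the fragment levels was not tested.

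The LysTTT and LysCTT fragments had different lengths. Of 10474 LysTTT counts, 44.7% were 19 nt, 19.1% were 18 nt and 13.8% were 21 nt, and the table holds no LysTTT row of 16, 17 or 25 nt. Of 9947 LysCTT counts, 58.3% were 16 nt, 18.7% were 29 nt and 12.7% were 26 nt. LysCTT fragments of 19 to 25 nt, the range that held most LysTTT counts, came to 166 counts against 7934 for LysTTT. Both sets have further fragments beginning a few bases inside the tRNA, which are not members. Fragments that begin at base 1 made up 91.9% of the LysTTT fragments that begin within the first 7 bases. For LysCTT the share was 75.8%, with another 17.4% beginning at base 3.

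**Figure D1:**
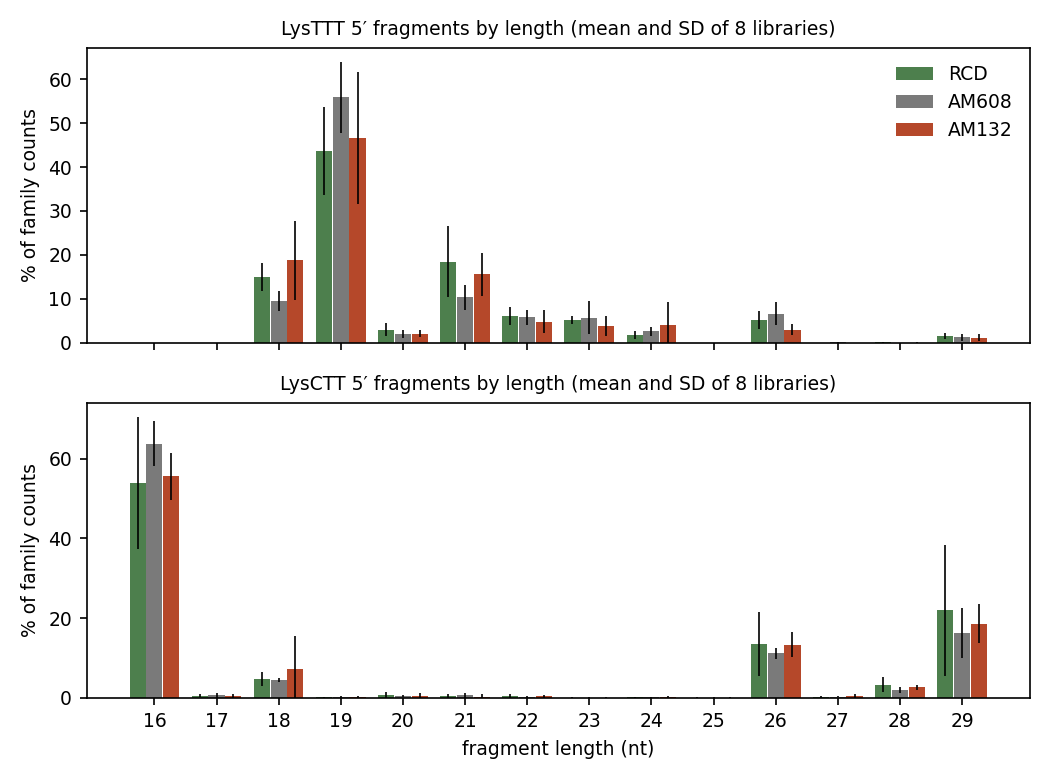
Share of LysTTT (top) and LysCTT (bottom) counts under 30 nt at each fragment length in nt, as the mean over 8 libraries per group with the SD as error bar. LysTTT peaks at 19 nt in all 3 groups (46.5%, 55.8% and 43.6% in AM132, AM608 and RCD), and LysCTT at 16 nt (55.5%, 63.7% and 53.9%).

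Shares of single lengths varied between libraries as well as between groups. The 18-nt fragment made up 18.7% ± 8.996 (SD, n = 8) of LysTTT counts in AM132, 9.57% ± 2.25 in AM608 and 14.9% ± 3.24 in RCD. AM132 library 8 was highest at 39.5%, and the other 23 libraries lay between 4.87 and 22.4%. The share of 21 nt was 15.6% ± 4.88 in AM132, 10.4% ± 2.87 in AM608 and 18.5% ± 8.10 in RCD. The mean length of LysTTT fragments was 19.99 ± 0.384 nt in AM132, 20.3 ± 0.399 nt in AM608 and 20.3 ± 0.248 nt in RCD, differences of the size of the spread between libraries. No test was made of these shares.

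At the limit of 30 nt the LysTTT and LysCTT starts part. Just inside it, 29-nt fragments held 119 LysTTT and 1861 LysCTT counts. Just outside, 30-nt fragments held 2243 LysTTT and 40263 LysCTT counts, which are 17.6% and 80.2% of all counts with those starts. The 30-nt LysCTT counts fell mainly on a form with A at position 29 (25574 counts) and a form with G there (14673 counts). The table holds no tRF longer than 30 nt, so longer 5′ fragments are not covered.

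Summed over all lengths under 30 nt, LysTTT fragments differed 2.05-fold between AM132 and AM608, with AM132 the higher, which did not pass the threshold, and LysCTT fragments fell by 0.67 on the log2 scale in AM132 against RCD. LysTTT ranged in AM132 from 11709 to 45160 CPM (median 14713), in AM608 from 6554 to 17501 CPM (median 8180) and in RCD from 8560 to 16467 CPM (median 14297). The 45160 is AM132 library 8, where LysTTT made up 2.75% of all tRF counts. In AM132 library 1 it made up 2.66% at 29616 CPM, so much of the gap in CPM comes from the scaling. All AM132 libraries lay above the AM608 median, yet only 2 lay above the highest AM608 library. LysCTT ranged in AM132 from 7119 to 15594 CPM (median 10755), in AM608 from 9855 to 18050 CPM (median 14544) and in RCD from 10662 to 25210 CPM (median 17151). The groups overlap, and the LysCTT medians run in the opposite order to the LysTTT medians of the injected groups. In bulk liver, fewer cells of a type and less fragment per cell cannot be told apart.

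**Figure D2:**
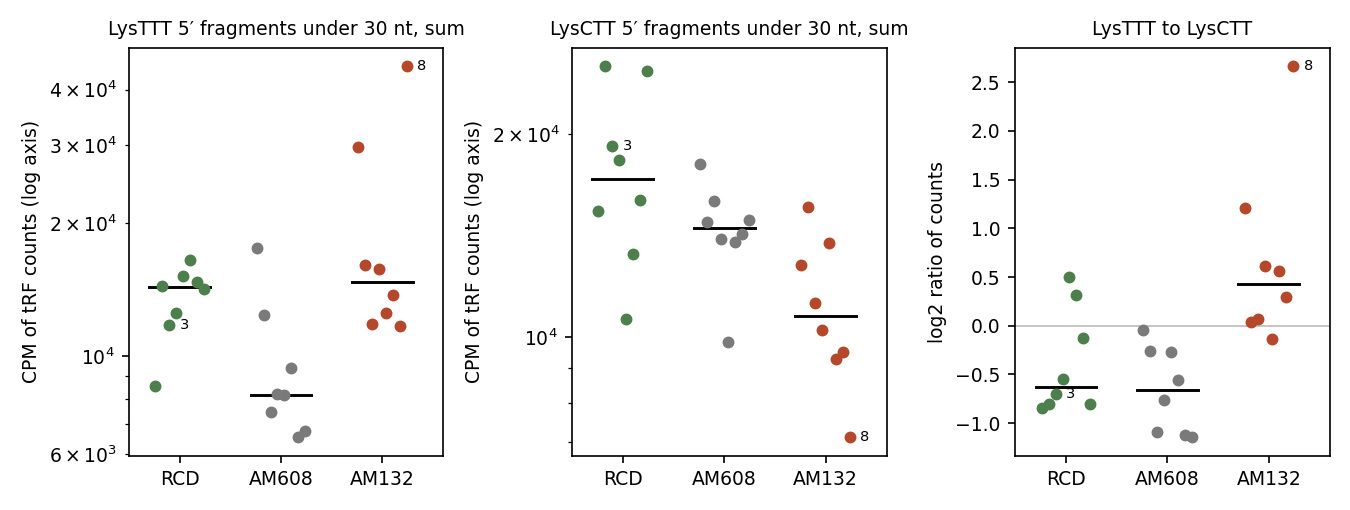
CPM of LysTTT and LysCTT fragments under 30 nt (log axes) and the log2 ratio of their counts, 1 point per library and the median as a line. AM132 library 8 and RCD library 3 are numbered. The AM132 ratio has a median of 0.43 and the AM608 ratio of -0.66.

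For the tests, counts were summed over all tRFs under 30 nt that share their first 15 nt, and 214 such sums were tested with edgeR. Between AM132 and AM608 the log2 difference of LysTTT was 1.03 (SE 0.264, edgeR, unadjusted p = 0.000558, adjusted p = 0.0542). No sum passed the threshold of 0.05 in that comparison (0.00% of 214 by edgeR), while 46 had an unadjusted p under 0.05. The LysTTT difference is sensitive to single libraries. It became 0.71 without AM132 library 8 (adjusted p = 0.104), and it passed the threshold when any one of AM132 libraries 2 to 7 or AM608 library 1 was left out. By DESeq2 it was 1.03 with an adjusted p of 0.0206. LysTTT against RCD gave -0.50 in AM608 (SE 0.263, edgeR, adjusted p = 0.237) and 0.54 in AM132 (SE 0.262, adjusted p = 0.152), and neither passed. Without AM132 library 8 the latter became 0.18 (adjusted p = 0.635).

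LysCTT fell by 0.67 on the log2 scale in AM132 against RCD (SE 0.180, edgeR adjusted p = 0.0133), where 16.8% of all sums passed in either direction and 5.61% passed as lower. The call held with each library left out in turn (adjusted p from 0.00561 to 0.0343), and 4 of 8 AM132 libraries lay below the lowest RCD library. It was not made when counts were scaled to the total of tRF and miRNA counts, where the difference was -0.35 (adjusted p = 0.151). That scaling moved the tested single tRFs upwards by a median of 0.39 in AM608 against RCD and 0.40 in AM132 against RCD. Whether LysCTT is lower beyond such a shift was not tested. LysCTT in AM132 against AM608 gave -0.37 (SE 0.179, adjusted p = 0.232). In AM608 against RCD it was -0.30 (SE 0.179, adjusted p = 0.286), where 3.74% of all sums passed, and it turned to 0.04 with the scaling to tRF and miRNA counts.

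The ratio of LysTTT to LysCTT counts within a library needs no scaling and was higher in AM132 than in either other group, with overlap. As log2 it ranged from -0.14 to 2.66 in AM132 (median 0.43), from -1.14 to -0.04 in AM608 (median -0.66) and from -0.85 to 0.51 in RCD (median -0.63). In AM132, 7 of 8 libraries lay above the highest AM608 library, and 4 of 8 above the highest RCD library. The mean was 0.67 ± 0.912 (SD, n = 8) in AM132, -0.66 ± 0.437 in AM608 and -0.38 ± 0.540 in RCD. AM132 exceeded AM608 by 1.32, or 2.50-fold (two-sided exact permutation test, p = 0.000311, adjusted over 3 comparisons p = 0.000932). AM132 exceeded RCD by 1.04 (exact permutation p = 0.00761, adjusted p = 0.0114), and AM608 and RCD differed by -0.28 (exact permutation p = 0.271, unchanged by the adjustment). Without AM132 library 8, which had the 2.66, the difference from AM608 was 1.04 (exact permutation, adjusted p = 0.00186) and that from RCD was 0.76 (exact permutation, adjusted p = 0.0214). A ratio shows unequal change and does not say which of the sums moved.

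Among single fragments 12 of the 28 members passed the filter on low counts, 6 with each start. A member that is high in 1 group alone can pass through that group, so the counts below describe the 12 and not all members. In AM132 against AM608, 2 of 12 passed an adjusted p of 0.05, both LysTTT and both higher, where 5.08% of all 295 tested tRFs passed and 4.07% passed as higher. They are the 21-nt and the 18-nt fragment, and no LysCTT fragment passed. In AM608 against RCD, 1 of 12 passed (4.41% of all tested, 2.71% as lower), the same 21-nt LysTTT fragment, lower in AM608. In AM132 against RCD, 1 of 12 passed, the 29-nt LysCTT fragment ending in G, lower in AM132. With 15.3% of all tested tRFs passing there and 9.15% as lower, 1 of 12 is no more than the background.

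The 21-nt LysTTT fragment runs 2 bases past the 19-nt form and had the lowest adjusted p of the 12 between the injected groups. It ranged in AM132 from 1597 to 6907 CPM (median 2359), in AM608 from 534 to 1254 CPM (median 862) and in RCD from 1131 to 4929 CPM (median 2302). All 8 AM132 libraries lay above all 8 AM608 libraries, a separation that 1.02% of tested tRFs showed. AM132 exceeded AM608 by 1.63 on the log2 scale (SE 0.293, edgeR adjusted p = 0.00101), or 3.10-fold. Without AM132 library 8 it was 1.26 (SE 0.237, adjusted p = 0.00196). As a share of all tRF counts the fragment was at a median of 0.220% in AM132, 0.0797% in AM608 and 0.194% in RCD. Against RCD it fell in AM608, where it was 2.64-fold lower (SE 0.294 on the log2 scale, edgeR adjusted p = 0.00881), with 7 of 8 AM608 libraries below the lowest RCD library. The call was not made without a filter on low counts (-1.11, adjusted p = 0.120). AM132 and RCD differed by 0.24 (SE 0.284, adjusted p = 0.626), and by -0.09 (SE 0.233, adjusted p = 0.856) without AM132 library 8. The last 2 contrasts share their libraries with the first, so they are not separate evidence.

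The 18-nt LysTTT fragment had the largest log2 fold change of the 12 in AM132 against AM608, and 1 library set much of its size. It ranged in AM132 from 1311 to 21483 CPM (median 2174), in AM608 from 316 to 1713 CPM (median 816) and in RCD from 1468 to 2524 CPM (median 1908). The 21483 is AM132 library 8, the next library stood at 4921 CPM, and 5 of 8 AM132 libraries lay above all AM608 libraries. As a share of all tRF counts, the fragment was at 1.08% in library 8 and at 0.449% in the next AM132 library. The difference of AM132 from AM608 was 2.38 (SE 0.485, edgeR adjusted p = 0.00420), or 5.21-fold. Without AM132 library 8 it was 1.38 (SE 0.295, adjusted p = 0.00729). Against RCD AM608 gave -1.06 (SE 0.478, adjusted p = 0.167), a difference that passed without AM132 library 8 (-1.02, SE 0.290, adjusted p = 0.0285). AM132 against RCD gave 1.32 (SE 0.468, adjusted p = 0.0531), and 0.36 (adjusted p = 0.417) without that library. This difference passed in 4 of 12 alternative settings and in 6 of 24 fits that left out 1 library, each with AM132 library 8 kept.

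**Figure D3:**
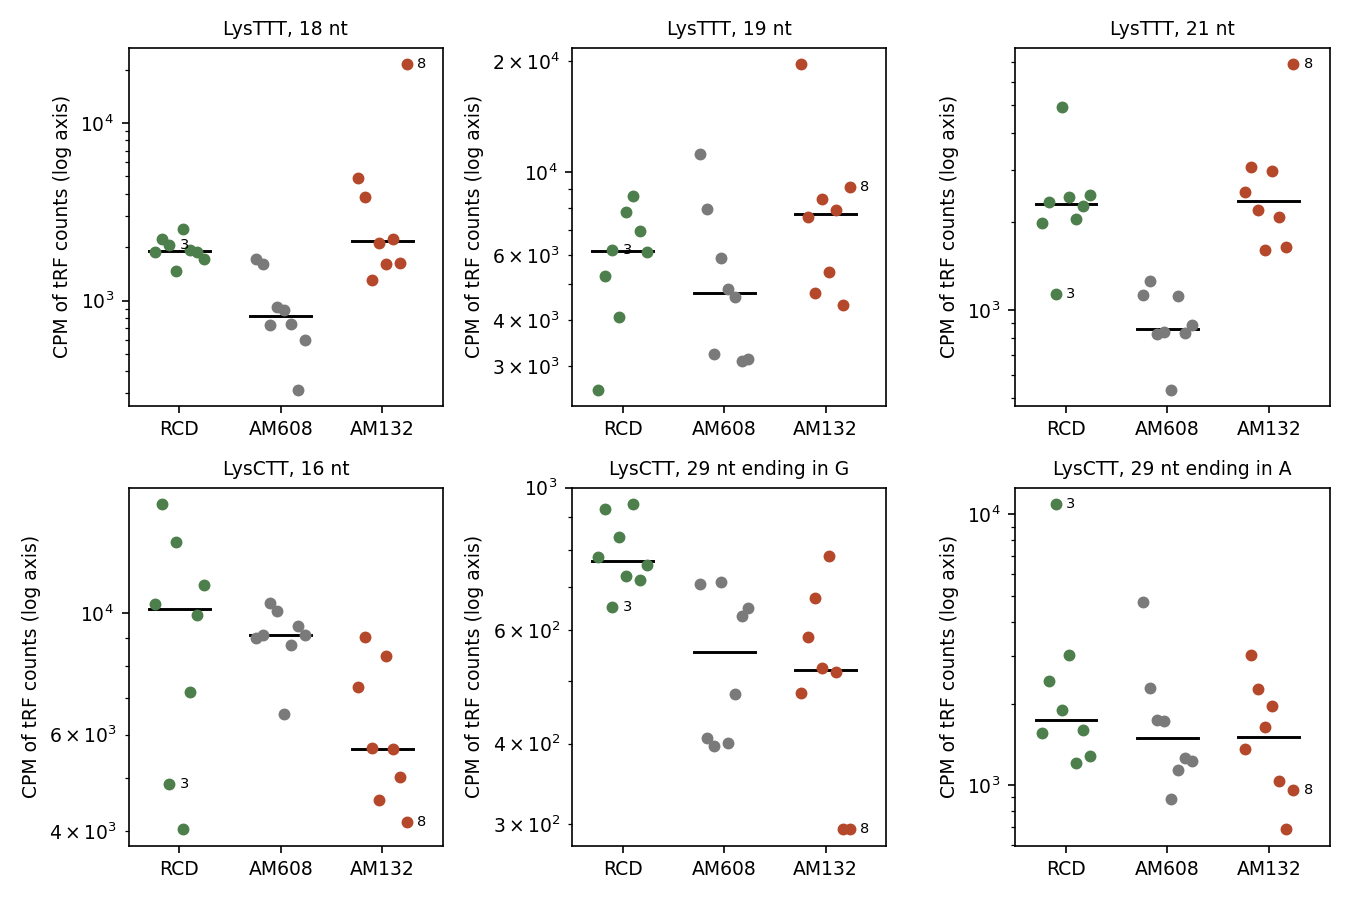
CPM of 6 lysine fragments by group (log axes), 1 point per library with the median as a line, AM132 library 8 and RCD library 3 numbered. The 21-nt LysTTT values of AM132 (1597 CPM and above) and AM608 (1254 CPM and below) do not overlap, while the 19-nt values do.

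The 19-nt LysTTT fragment is 1 base longer than the 18-nt form and was the most counted LysTTT fragment, yet it passed in no comparison. It ranged in AM132 from 4387 to 19604 CPM (median 7747), in AM608 from 3099 to 11221 CPM (median 4733) and in RCD from 2600 to 8648 CPM (median 6139). Only 1 of 8 AM132 libraries lay above the highest AM608 library. Its log2 difference between AM132 and AM608 was 0.61 (SE 0.308, adjusted p = 0.253 by edgeR).

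The 22-nt, 23-nt and 26-nt LysTTT fragments passed in no comparison either. AM132 against AM608 gave log2 fold changes of 0.86 (SE 0.319), 0.85 (SE 0.434) and -0.23 (SE 0.253). They were 0.34 (SE 0.243), -0.07 (SE 0.288) and -0.39 (SE 0.250) without AM132 library 8, so the sign at 23 nt turned. AM132 library 8 was far above the rest of its group at 22 nt (2630 CPM, next 1240) and at 23 nt (3515 CPM, next 640). The 24-nt fragment showed the same library most sharply. It had 361 counts there and 0 to 15 in each of the other AM132 libraries, and it made up 16.3% of LysTTT counts in library 8 against at most 4.24% in the other 23 libraries. This fragment did not pass the main filter. The same library had the highest sum of hepatocyte miRNAs in AM132 (613665 CPM, group median 524281), the highest erythroid sum (1457 CPM, median 514), the highest level of the endothelial miR-126a-3p (57807 CPM, median 44200) and the lowest stellate cell sum (1253 CPM, median 2503), and their part in its fragment levels was not tested.

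The 16-nt LysCTT fragment, the most counted LysCTT member, had its lowest median in AM132 but passed in no comparison with all libraries. It ranged in AM132 from 4154 to 9070 CPM (median 5658), in AM608 from 6545 to 10449 CPM (median 9127) and in RCD from 4028 to 15855 CPM (median 10169). The AM608 libraries lay close together, and 5 of 8 AM132 libraries lay below all of them. AM132 differed from AM608 by -0.55 (SE 0.228, edgeR adjusted p = 0.183) and from RCD by -0.63 (SE 0.229, adjusted p = 0.0571). The latter passed in 4 of 24 fits that left out 1 library, among them that without RCD library 3 (-0.73, edgeR adjusted p = 0.0199). AM608 and RCD differed by -0.09 (SE 0.227, adjusted p = 0.854), and by 0.07 without RCD library 2.

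The longer LysCTT fragments that were tested, of 26, 28 and 29 nt, had log2 fold changes below 0 in both comparisons with RCD with TMM factors and all libraries. Single RCD libraries carried 2 of them. The form ending in A became 0.03 in AM608 against RCD without RCD library 3 (from -0.67) and -0.20 in AM132 against RCD (from -0.89). Without RCD library 8, the 26-nt fragment became -0.12 in AM608 against RCD (from -0.64) and -0.23 in AM132 against RCD (from -0.71). The 29-nt form ending in G ranged in RCD from 652 to 943 CPM (median 769), in AM132 from 294 to 782 CPM (median 521) and in AM608 from 397 to 714 CPM (median 554). In AM132 against RCD it fell by 0.62 on the log2 scale (SE 0.212, edgeR adjusted p = 0.0471), with 6 of 8 AM132 libraries below the lowest RCD library. Without AM132 library 8 the difference was -0.53 (adjusted p = 0.0817), and the call held in only 9 of 24 fits that left out 1 library. It was not made with the total of all tRF counts (-0.53, edgeR adjusted p = 0.155) or of tRF and miRNA counts (-0.27, edgeR adjusted p = 0.305). The form ending in G had only 12 to 22 counts in each AM132 library and 15 to 26 in each RCD library. AM608 against RCD gave -0.53 (SE 0.209, adjusted p = 0.102), also with 6 of 8 libraries below. The 28-nt fragment, with 5 to 24 counts a library, gave -0.87 (SE 0.308, adjusted p = 0.0531) in AM132 and -0.89 (SE 0.305, adjusted p = 0.0723) in AM608 against RCD. The 27-nt fragment, with 27 counts in all, did not pass the main filter. Without a filter it went the other way, with 1.24 in AM132 and 0.86 in AM608 against RCD, and was not called.

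The 29-nt form ending in A had a similar median in all groups and a much wider spread. Its medians were 1503 CPM in AM132, 1493 CPM in AM608 and 1744 CPM in RCD. RCD library 3 had 10914 CPM and the next RCD library 3009 CPM. In RCD library 3, 29-nt fragments made up 59.1% of LysCTT counts under 30 nt, and the mean LysCTT length was 25.2 nt, against a group mean of 20.8 ± 2.18 nt. The 30-nt form with the same A followed it, at 205200 CPM in that library against 46055 CPM in the next, whereas the 30-nt form with G had its highest RCD value in library 4. This is the library with the highest neuronal, muscle, leukocyte and erythroid and the lowest hepatocyte and biliary sums, whose part was not tested. Without it LysCTT still fell by 0.66 on the log2 scale in AM132 against RCD (adjusted p = 0.0160).

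The 26-nt and 18-nt LysCTT fragments also had 1 library far from the rest. At 26 nt the medians were 1501, 1538 and 1619 CPM in AM132, AM608 and RCD, and RCD library 8 stood at 7500 CPM. At 18 nt they were 438, 667 and 742 CPM, and AM132 library 8 stood at 2360 CPM. Neither fragment passed in a comparison with all libraries. Without AM132 library 8, the 18-nt LysCTT difference from AM608 changed from 0.16 to -0.49 (adjusted p = 0.394), and that from RCD passed at -0.84 (SE 0.280, edgeR adjusted p = 0.0466).

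**Figure D4:**
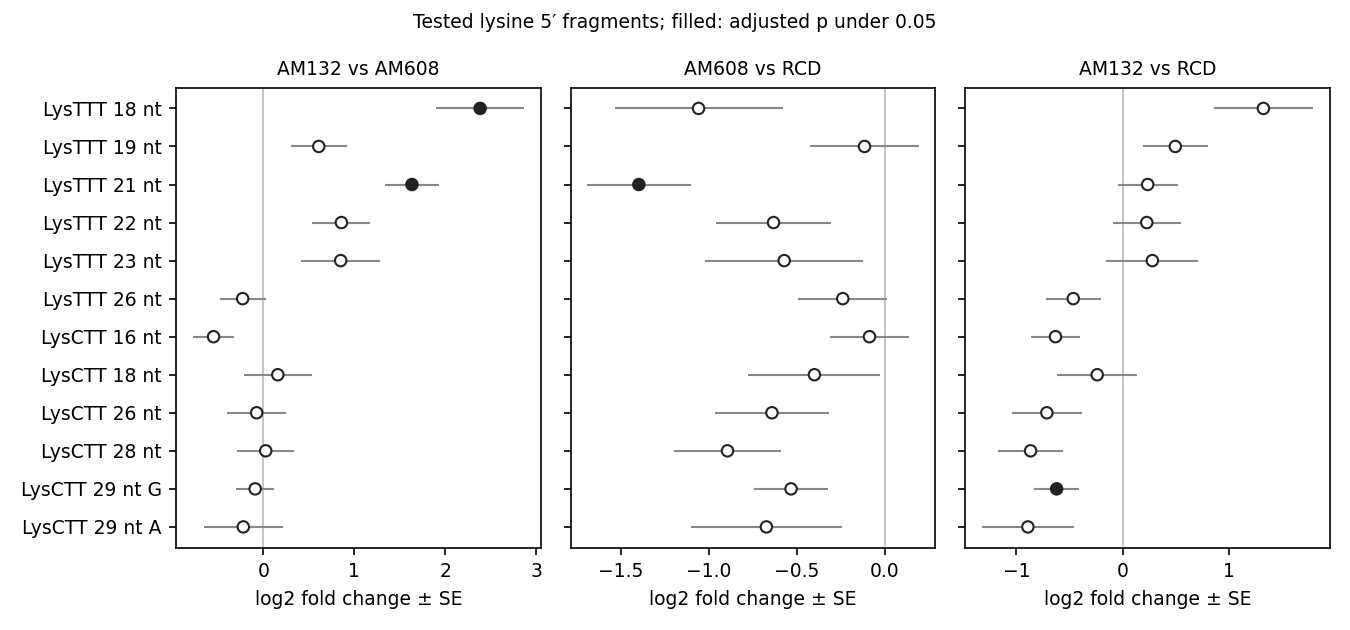
Log2 fold change with its SE for the 12 tested fragments in each comparison, with filled points for an adjusted p under 0.05 and G or A for the last base of the 29-nt LysCTT forms. In AM608 against RCD all 12 points lie below 0 (9 with the total of tRF and miRNA counts, 11 without RCD library 2, 3 or 4), and only LysTTT at 21 nt is filled.

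The LysTTT and LysCTT members can be read against the table as a whole. In AM132 against AM608, 5 of 6 tested LysTTT fragments had a log2 fold change above 0 and their median was 0.85, against 2 of 6 (1 of 6 with the total of all tRF counts) and -0.08 for LysCTT and a median of -0.01 over all tested tRFs. This became 4 of 6 LysTTT fragments and a median of 0.45 without AM132 library 8. In AM608 against RCD all 12 were below 0 with all libraries and TMM or RLE factors, 11 with the total of all tRF counts and 9 with the total of tRF and miRNA counts. With TMM factors 1 of them was above 0 without RCD library 2, 3 or 4. Their median with TMM was -0.60, against -0.03 over all tested tRFs. In AM132 against RCD, 5 of 6 LysTTT fragments were above 0 (median 0.26) and 6 of 6 LysCTT fragments were below 0 (median -0.67), or 5 of 6 with the total of tRF and miRNA counts. The median over all tested tRFs was 0.03. Only 2 of 6 LysTTT fragments were above 0 in that comparison, with a median of -0.16, when AM132 library 8 was left out. Lengths of 1 start overlap in sequence and share libraries, so they are not independent, and the comparisons share groups.

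The other 16 members did not pass the main filter, which asks for a minimum count in enough libraries. The 11 LysCTT members among them held 1 to 59 counts each over all 24 libraries, 253 in all. The 5 LysTTT members held 896 counts, of which 544 were the 24-nt fragment, 224 the 20-nt fragment and 119 the 29-nt fragment. These 3 were tested with the filter of a mean CPM of at least 100. There the 20-nt fragment was higher in AM132 than in AM608 (log2 fold change 1.13, SE 0.344, adjusted p = 0.0406 by edgeR). That fit includes AM132 library 8, where the fragment had 41 counts, against 5 to 12 in each of the other AM132 libraries. Without library 8 the AM132 median was 286 CPM, against 154 CPM in AM608, a difference that was not tested. The 24-nt fragment was higher in AM132 than in RCD (2.45, SE 0.782, adjusted p = 0.0414), in a fit that includes AM132 library 8. Neither passed with no filter at all (adjusted p = 0.251 and 0.133). The 29-nt LysTTT fragment had 13 counts at most in a library, with medians of 151, 110 and 205 CPM in AM132, AM608 and RCD, and passed in no comparison (adjusted p = 0.584 for AM132 against AM608).

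The series title names miR-194-5p beside lysine tRFs, and its relation to the fragment sums was examined within each group, so that differences between groups could not make it. miR-194-5p, a miRNA abundant in liver and gut, had a median of 19668 CPM in AM132, 14527 CPM in AM608 and 14983 CPM in RCD. For LysTTT, Pearson's r over the 8 libraries was -0.36 in AM132, 0.54 in AM608 and 0.32 in RCD, and Spearman's rho was -0.52, 0.64 and 0.29. The exact permutation p-values for r were 0.387, 0.154 and 0.368, or 0.594 each after adjustment over 6 relations. Those for rho were 0.197, 0.0962 and 0.501 by the same permutation, with adjusted values from 0.577 to 0.840. For LysCTT, r was -0.11 in AM132, 0.37 in AM608 and -0.02 in RCD (exact permutation p = 0.786, 0.396 and 0.965, adjusted p = 0.944, 0.594 and 0.965). Its rho was -0.14, 0.19 and -0.10 (exact permutation p = 0.752, 0.665 and 0.840, adjusted p = 0.840 each). With the 2 libraries farthest from the median left out, r for LysTTT was -0.06, 0.35 and -0.23 in AM132, AM608 and RCD. No relation was detectable over 8 libraries a group.

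Other tRF sums that followed LysTTT most closely over the 24 libraries are given as a description of these libraries, which differ in group and depth. Among 213 other sums under 30 nt, tRFs beginning ggggatgtagctcag had a Spearman rho of 0.83 with LysTTT and those beginning ggggaattagctcaa one of 0.72. The third, gttcgatccccggca, had one of 0.64. For LysCTT the highest were tccctggtctagtgg at 0.70, tccctgtggtctagt at 0.64 and tcccatatggtctag at 0.63. LysTTT and LysCTT, which differ at 1 of those 15 bases, had a rho of -0.09 with each other.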

How the data were processed

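The deposited tables hold raw read counts of miRNAs and tRFs per library, made by the authors; the values are counts. FastQC is named per the submitters' processing notes, while the sources used here do not name an aligner, genome build or counting rule. Per the labels' protocols, RNA with a RIN above 8.4 was extracted with a Qiagen kit, and 300 ng of it went into each NEBNext small RNA library, a kit that favours 5′ phosphate and 3′ hydroxyl ends. All 8456 tRF names were decoded to sequences and encoded back. Counts were tested with edgeR 4.0.16 (R 4.3.3; robust quasi-likelihood fit, TMM factors, filterByExpr, group as the only term, all 24 libraries), once for single tRFs (295 tested) and once for counts summed by the first 15 nt under 30 nt (214 of 2308 tested). Benjamini-Hochberg adjustment ran over all tested features, with a threshold of 0.05. An SE is the absolute log2 fold change divided by the square root of F. The script was tested on simulated data. Ratios (prior count 0.5) were compared over all 12870 assignments, and correlations of log2 CPM over all 40320 pairings, with Python 3.11.15. Alternatives included DESeq2 1.42.0, limma 3.58.1, other scalings and filters, and leaving out each library. The text names the 6 members per start with the highest mean CPM, every other tested member, any member called, the 29-nt and 30-nt forms, and the 3 sums most like each start. Members, miRNA lists and tests were chosen with earlier results of these data known. Over 84 pairs of libraries of 1 group, chi-square divided by its degrees of freedom was at least 1.88, so none was taken as the same library sequenced again. This cannot show whether 2 libraries come from 1 animal. RefSeq sequences and names were matched by symbol.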

Additional observations from a re-analysis of the deposited data

Results flagged for a closer look

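In 45 sets of 8 libraries (12 fragments, both sums and the ratio in 3 groups), the library farthest from the rest was compared with the group's range. In 11 its gap to the next exceeded 0.526 of the range, a limit that about 1 in 20 sets of normally distributed values would exceed. The CPM values were not on a log scale and the sets share libraries, so that rate need not hold here. Whether 11 of 45 is more than chance gives was not tested. AM132 library 8 was the high library for LysTTT at 18 nt (21483 CPM), 21 nt (6907 CPM), 22 nt (2630 CPM) and 23 nt (3515 CPM), and for LysCTT at 18 nt (2360 CPM). AM132 library 1 was high for LysTTT at 19 nt (19604 CPM, next 9119), and RCD library 4 for LysTTT at 21 nt (4929 CPM, next 2473). RCD library 8 was high for LysCTT at 26 nt (7500 CPM, next 2784). The 29-nt LysCTT form ending in A was high in RCD library 3 (10914 CPM) and in AM608 library 1 (4725 CPM, next 2289). AM608 library 5 was low for LysCTT at 16 nt (6545 CPM, next 8748).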

How the results depend on the processing

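LysTTT in AM132 against AM608 passed by DESeq2 (1.03, adjusted p = 0.0206), without a filter (0.93, adjusted p = 0.00301), with a mean CPM of at least 100 (0.93, adjusted p = 0.0340) and scaled to all tRF counts (0.93, adjusted p = 0.0384). Without AM132 library 8 the last did not pass (0.77, edgeR adjusted p = 0.0576). LysTTT in AM132 against RCD passed when scaled to tRF and miRNA counts (1.11, adjusted p = 0.0172). Without AM132 library 8 as well it did not pass (0.51, edgeR adjusted p = 0.121). Both settings without library 8 were added after seeing the data. LysCTT in AM132 against RCD was not called with all lengths (-0.75, adjusted p = 0.0584) or with tRF and miRNA totals (-0.35, or -0.36 without AM132 library 8 as well, a setting added after seeing the data), and in AM608 against RCD it turned to 0.0446 with those totals and to 0.0447 without library 8 as well (adjusted p = 0.901 and 0.880). Over 24 fits that left out 1 library, LysTTT ranged from 0.71 to 1.21 (AM132 against AM608), -0.67 to -0.42 (AM608 against RCD) and 0.18 to 0.63 (AM132 against RCD), and LysCTT from -0.45 to -0.32, -0.38 to -0.20 and -0.75 to -0.59. The ratio ranged from 1.04 to 1.44 for AM132 against AM608, -0.37 to -0.15 for AM608 against RCD and 0.76 to 1.17 for AM132 against RCD, and all 16 fits of the first and of the last passed. The number of fragments called ranged from 2 to 3, 1 to 2 and 0 to 4 with 1 library left out. It was 2 in AM608 against RCD without AM132 library 8, AM608 library 1 or RCD library 7. In AM132 against RCD it was 0 without AM132 library 1, 4 without AM132 library 5, 3 without AM132 library 2 or 3, AM608 library 1 or RCD library 3 or 8, and 2 without AM132 library 6, AM608 library 2, 3 or 5 or RCD library 4 or 7. In AM132 against RCD it was 4 by DESeq2, 2 with RLE factors, with only the groups compared, with tRF and miRNA totals (both higher there) and without AM132 library 8 and RCD library 3 together, and 0 with the total of all tRF counts, with or without library 8, and with tRF and miRNA totals without library 8. In AM608 against RCD it was 2 by DESeq2, with only the groups compared, without both libraries and with the total of all tRF counts without library 8, and 0 without a filter. Without a filter, the 1 fragment called in AM132 against RCD was LysTTT at 18 nt (1.32, edgeR adjusted p = 0.00315), higher. With a mean CPM of at least 100 it was LysTTT at 24 nt (2.45, edgeR adjusted p = 0.0414), also higher. Over all 295 tested tRFs, tRF and miRNA totals changed the calls in AM608 against RCD from 5 higher and 8 lower to 48 and 2, in AM132 against RCD from 18 and 27 to 87 and 18, and in AM132 against AM608 from 12 and 3 to 10 and 1. Other alternatives lack calls over all tRFs, so their fragments called cannot be read against a background. Correlations with miR-194-5p that changed sign were LysCTT in RCD (0.0130 with tRF totals) and, without the 2 farthest libraries, LysTTT in RCD (-0.23) and LysCTT in AM132 (0.0213), AM608 (-0.18) and RCD (0.14). Deviations from the group means in libraries with the same sample number had correlations from -0.30 to 0.49. Different sample numbers were not compared, so a pairing is not settled. With a replicate block LysTTT was 0.95, -0.57 and 0.38 and LysCTT -0.37, -0.28 and -0.65, in the same order. The block fit called 2, 1 and 0 fragments. Of 1295 values of single fragments under an alternative, 24 lost a call, 33 gained one and 58 changed sign uncalled. The causes were not tested. With 20580 to 80578 tRF counts a library, fragments with a few counts cannot be compared.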
